A study of Homo sapiens and Mus musculus with 10 samples.

Results

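Thapsigargin is a plant toxin that blocks the sarco/endoplasmic reticulum calcium ATPase, the pump that fills the endoplasmic reticulum (ER) with calcium, and it is a standard way to cause ER stress. The results concern wild-type (WT) HEK293T, a human embryonic kidney cell line, treated with 300 nM thapsigargin for 6 h, set against mock-treated WT HEK293T cells of the same stress set. There was 1 library a side, so the difference has no replicate check and the 2-fold calls carry no p-value. The transcripts described are those with 50 or more reads in the higher of both libraries, 9116 of the 16120 in the table. The series holds 10 libraries of ribosomal RNA-depleted total RNA, 7 from HEK293T and 3 from the mouse line N2a. Beside the pair compared, 2 further WT HEK293T libraries are used below for their values: cells of the stress set deprived of glucose for 24 h, and the mock library of a separate genotype set. A pooled fit, used beside the 2-fold calls, also takes in WT cells of the genotype set deprived of glucose and UFD1s-deficient cells, mock-treated and glucose-deprived. The labels do not say how the deficient line was made. The labels name neither the vehicle given to mock cells nor separate cultures.

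When unfolded proteins build up in the ER, cells start the unfolded protein response through 3 membrane sensors. PERK (gene EIF2AK3) phosphorylates the initiation factor eIF2 alpha, which slows translation and favours translation of ATF4 and its targets, a branch shared with other stresses and called the integrated stress response. IRE1 (gene ERN1) splices the XBP1 mRNA so that it encodes an active transcription factor, and ATF6 is cut in the Golgi to release another. ATF6 and XBP1 drive genes for ER chaperones, for ER-associated degradation and for secretory traffic.

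The mock library held 16990125 counted reads and the thapsigargin library 19024327. The glucose-deprived library of the stress set held 12771607. Over the transcripts shared with the genotype set, the genotype-set mock held 12119247 reads, the stress-set mock 15637146 and the thapsigargin library 17401817. Read counts given below are not scaled to these totals, whereas folds and log2 ratios are scaled. Ratios were taken on CPM (read counts scaled to library size) with TMM factors, which match the bulk of transcripts between libraries. A transcript was called at a ratio of 2-fold or more. A total of 741 transcripts (8.13% of 9116) were called, 437 higher after thapsigargin (4.79%) and 304 lower (3.33%). With library totals in place of TMM, the split was 354 higher and 403 lower, and the median log2 ratio of all transcripts moved from 0.01 to −0.10. Of the called transcripts, 87 were at least 4-fold higher and 20 at least 4-fold lower. Among the 52 transcripts with exactly 50 reads in the higher library, log2 ratios ran from −2.49 to 2.95, and among the 23 just outside, with 49 reads, from −0.94 to 1.32.

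**Figure D1:**
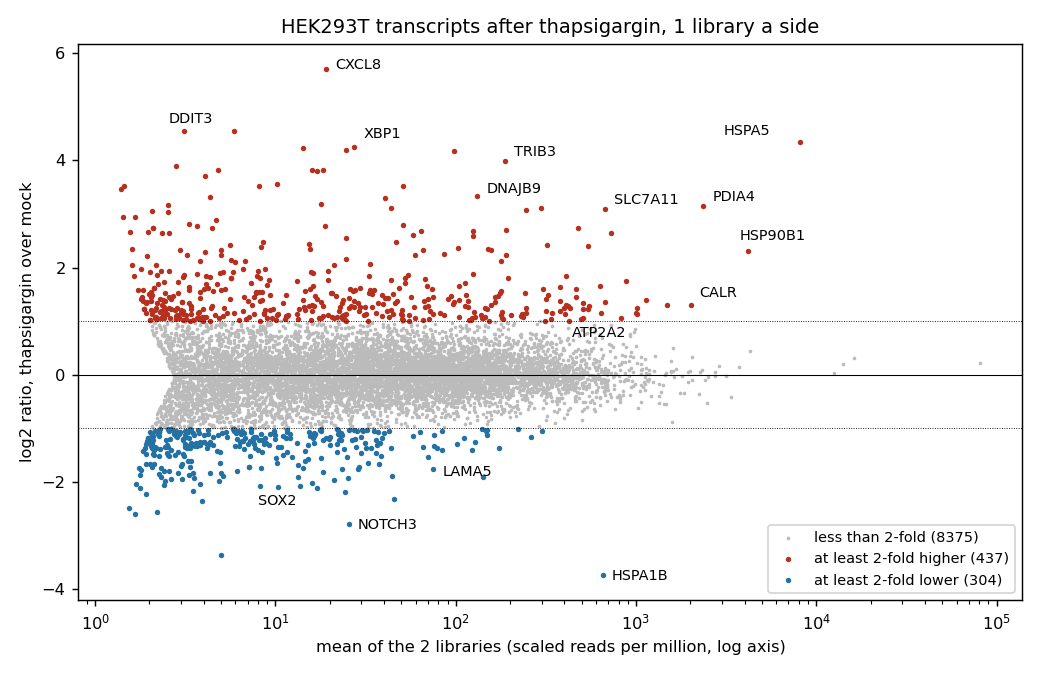
Each point is 1 of the 9116 transcripts: the horizontal axis gives its mean TMM-scaled CPM in both libraries (log axis) and the vertical axis its log2 ratio of thapsigargin over mock. Red points are the 437 transcripts at least 2-fold higher and blue points the 304 at least 2-fold lower, with HSPA5 as the called transcript farthest to the right and HSPA1B as the lowest.

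A second WT mock library shows how far mock libraries differ. Against it, 1637 of 9132 transcripts (17.9%) were called after thapsigargin, 542 higher and 1095 lower, so lower calls were in the majority there. Over 9090 transcripts with 50 or more reads in the higher of both mock libraries, 947 (10.4%) differed by 2-fold or more, 869 higher in the genotype set and 78 lower. A share of 2-fold calls of this size was therefore also reached without thapsigargin. Among those 9090 transcripts, 102 were at least 4-fold and 6 at least 8-fold higher in the genotype-set mock. Over the 9049 described transcripts that both tables hold, 69 were at least 4-fold and 25 at least 8-fold higher after thapsigargin than in the stress-set mock. Each comparison has its own read minimum and both share the stress-set mock library. Against both mock libraries at once, 240 of these 9049 transcripts (2.65%) were at least 2-fold higher after thapsigargin and 205 (2.27%) at least 2-fold lower. Those 240 are 59.7% of the 402 called higher within the shared transcripts, and the 205 are 68.6% of the 299 called lower. Of 69 transcripts at least 4-fold higher, 63 were 2-fold higher against both mock libraries, as were 19 of 19 at least 4-fold lower in the other direction. The stress-set mock served for the choice of these transcripts, so only the genotype-set mock adds to such shares. Against the genotype-set mock, lower ratios were the more common: 916 of the 9049 transcripts were at least 2-fold lower and 542 higher. A pooled edgeR fit over 7 HEK293T libraries, in which the lone thapsigargin library is assumed to vary like the others, called 532 of 10368 transcripts higher (5.13%) and 313 lower (3.02%) at an adjusted p under 0.05.

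**Figure D2:**
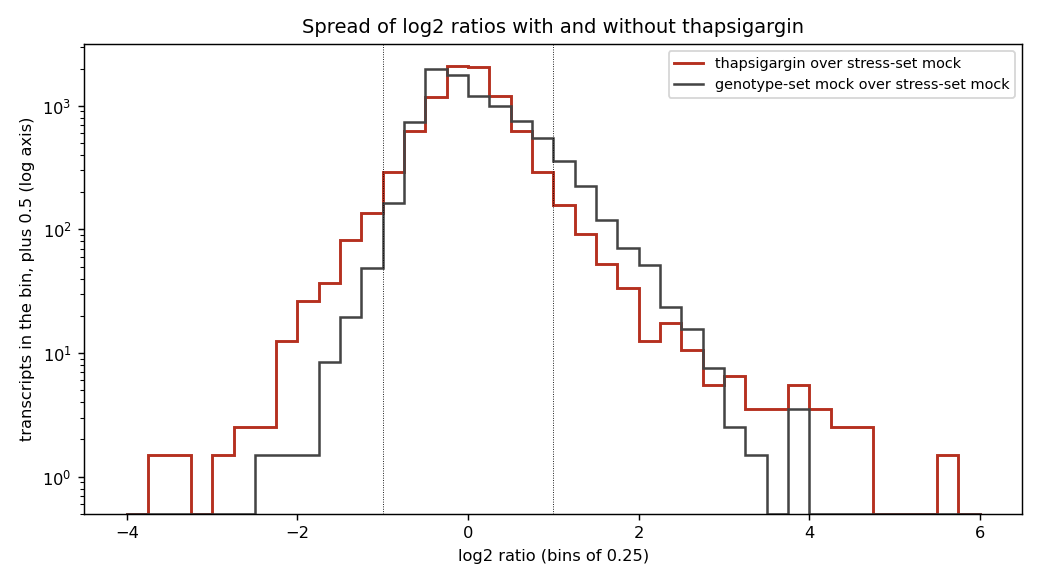
The lines count transcripts by log2 ratio in bins of 0.25 (horizontal axis), with 0.5 added to each count so that it can be drawn on the log vertical axis, each over the transcripts that both tables hold and that reach 50 reads in the pair compared. The red line is thapsigargin over the stress-set mock (9049 transcripts) and the grey line genotype-set mock over stress-set mock (9090): from a log2 ratio of 3 upward the red line counts 25 transcripts and the grey line 6.

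Of 8 markers of the HEK293T line with enough reads, all had a ratio below 1, with a median log2 ratio of −0.73, and 2 were at least 2-fold lower, also against both mock libraries. Their part in other lower ratios was not tested. The neurofilament NEFL had 2952 reads in mock and 1776 after thapsigargin. KRT8 and GATA3 were at 0 in both. Of 11 markers of other cell types, 2 reached 50 reads, VWF with 61 and 48 reads and PDGFRA with 207 and 78. Albumin was at 0 in both libraries.

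Of all described transcripts, 4.79% were called higher and 3.33% lower, the shares to set beside the counts of each list. Of the 39 gene lists, ER chaperones gained the most in their share of reads. Of 25 chaperone transcripts with 50 or more reads, 15 reached 2-fold higher and 0 lower, with a median log2 ratio of 1.11 against 0.01 for all transcripts. Against both mock libraries, 11 of 24 were at least 2-fold higher, and the pooled edgeR fit called 13 higher. All chaperone transcripts listed, rare ones included, took 0.542% of counted reads in mock and 2.88% after thapsigargin. HSPA5 encodes BiP, the Hsp70 of the ER that also holds the sensors inactive. It had 13540 reads in the stress-set mock library, 8435 in the genotype-set mock library and 281566 after thapsigargin. That is a 20.1-fold higher level (95% interval 19.8 to 20.5, for counting error only, as for each interval below) against the first mock and 26.1-fold against the second. HSP90B1, the Hsp90 of the ER, had 24900, 13437 and 127402 reads in the same order, a 4.96-fold higher level (4.89 to 5.02). The lectin chaperone CALR went from 20459 to 52262 reads, 2.48-fold higher (2.44 to 2.52). In reads the thapsigargin library stood above both mock libraries for all 3.

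The cochaperones of BiP were among the members with the largest ratios. SDF2L1, which keeps misfolded clients in solution with DNAJB11, had 139 reads in mock and 1710 after thapsigargin, 11.9-fold higher (10.02 to 14.3). Its genotype-set mock count of 248 was also below the thapsigargin count. DNAJB9 (ERdj4), which also restrains IRE1, had 418 and 4379 reads, 10.2-fold higher (9.18 to 11.3), and DNAJB11 had 890 and 5998, 6.53-fold higher. DNAJC3 (p58IPK), a cochaperone also known as an inhibitor of PERK, had 2208 and 15171 reads, 6.66-fold higher (6.37 to 6.96). MANF, a secreted ER protein that binds BiP, had 916 and 7975 reads, 8.43-fold higher. FICD, the enzyme that modifies BiP with AMP, is on no list and was 4.24-fold higher, with 142 and 622 reads. CRELD2 was at the edge of the read minimum, with 2 reads in mock and 50 after thapsigargin, a ratio of 24.2 with an interval of 6.36 to 206.

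Among the 10 members of the list between the limits, FKBP10, TOR1A and CNPY2 had log2 ratios of 0.40, 0.07 and 0.12. UGGT1, which checks the folding of glycoproteins, was 2.53-fold higher against the stress-set mock (44 and 115 reads). It was level with the genotype-set mock, where it had 95 reads. HYOU1, an abundant ER chaperone in most cells, had only 12 reads in mock and 4 after thapsigargin in its row. Each symbol has a single transcript row in the table, so a row need not hold a gene's whole count.

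ATF6 and XBP1 bind a bipartite sequence, the ER stress element (ERSE), which holds CCAAT and CCACG 9 bases apart, and the shorter ERSE-II, which holds ATTGG and CCACG 1 base apart. Both were searched on both strands in the 250 bases before the start of each gene in RefSeq promoter sequences on GRCh38.p14, where 27305 genes had a sequence. A window could be matched to 79.4% of the described transcripts, to 345 (78.9%) of those called higher and to 69.7% of those called lower. That is too few for a check of the motifs over these sets, which is void, and the hits are given as a description. ERSE occurred in 22 of all 27305 windows (0.0806%) and ERSE-II in 14 (0.0513%). Of the described transcripts with a window, 14 held ERSE and 11 of these were called higher: HSPA5, XBP1, CRELD2, HSP90B1, ERO1B, FICD, SERP1, TRIM5, ALG12, CALR and CANX. The other 3 were EIF2A, TMEM120A and ZNF17. ERSE-II occurred in 9, of which HERPUD1, SDF2L1, RAD9A and SHCBP1 were called higher. ERSE and ERSE-II both contain CCACG, which alone occurred in 33.3% of all windows, and the Y box CCAAT, which alone occurred in 33.0%. Among described transcripts with a window these shares were 45.6% and 36.3%. Other elements were searched too. Their counts stand beside 345 called higher of the 7241 described transcripts with a window. The C/EBP-ATF element occurred in 5 described transcripts, 0 of them called higher, which is too few to show an absence. The CRE occurred in 218, 12 of them higher. The SREBP, heat shock and E2F elements occurred in 60, 18 and 76, with 2, 2 and 4 called higher. The list of ER chaperones had a window for 21 of 25 members, 5 with ERSE and 1 with ERSE-II. Another element, the 8-base core of the unfolded protein response element, TGACGTGG, occurred in 1 of the 21. This core occurred in 0.667% of all windows and ends in CCACG read on the other strand. Among described transcripts with a window it occurred in 66, of which 14 were called higher and 2 lower. A match is a stretch of letters, and binding was not measured. The windows below, 120 bases each and 5′ to 3′ in the direction of the gene, show the match in capitals for 5 transcripts with high ratios and for NUCB1, which held ERSE-II at a lower ratio. They were chosen with their values known.
HSPA5 (chr9:125241344-125241463, minus strand): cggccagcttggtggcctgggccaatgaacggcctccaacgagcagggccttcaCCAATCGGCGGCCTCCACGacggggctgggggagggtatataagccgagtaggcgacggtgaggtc
XBP1 (chr22:28800570-28800689, minus strand): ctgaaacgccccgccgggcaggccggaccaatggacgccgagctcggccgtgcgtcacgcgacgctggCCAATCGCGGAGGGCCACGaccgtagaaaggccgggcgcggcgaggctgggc
HSP90B1 (chr12:103930290-103930409, plus strand): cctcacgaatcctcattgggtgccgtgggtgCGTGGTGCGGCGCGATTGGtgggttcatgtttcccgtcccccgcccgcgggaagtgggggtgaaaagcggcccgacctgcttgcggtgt
HERPUD1 (chr16:56932005-56932124, plus strand): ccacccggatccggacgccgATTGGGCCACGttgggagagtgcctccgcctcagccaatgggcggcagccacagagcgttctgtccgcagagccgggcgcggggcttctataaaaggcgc
SDF2L1 (chr22:21642094-21642213, plus strand): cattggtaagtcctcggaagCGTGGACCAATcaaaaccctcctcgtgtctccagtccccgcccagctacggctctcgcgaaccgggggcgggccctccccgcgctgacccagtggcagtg
NUCB1 (chr19:48900192-48900311, plus strand): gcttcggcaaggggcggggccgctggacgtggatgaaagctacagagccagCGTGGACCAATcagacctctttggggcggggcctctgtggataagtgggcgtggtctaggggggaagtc

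In HSPA5 and XBP1 the printed match lies in the forward direction and ends 47 and 33 bases before the start. In HSP90B1 it lies on the other strand, 70 bases before the start. The ERSE-II matches of HERPUD1, SDF2L1 and NUCB1 end 106, 177 and 58 bases before the start. NUCB1, a calcium-binding protein of the Golgi, had 1943 reads in mock and 3150 after thapsigargin, 1.57-fold higher (1.48 to 1.66). The log2 ratios of HERPUD1 and SDF2L1 were 4.24 and 3.53.

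Of 17 sensors and transcription factors of the unfolded protein response with enough reads, 11 reached 2-fold higher and 0 lower (median log2 ratio 1.64), 9 of them against both mock libraries. XBP1 is counted here on the RefSeq row NM_001079539.1, the transcript of the spliced form. It had 44 and 33 reads in the stress-set and genotype-set mock libraries, 956 after thapsigargin and 75 after glucose deprivation. The level after thapsigargin was 21.1-fold that of the stress-set mock (15.6 to 29.2), and the counts of the other 3 libraries lay between 33 and 75. Whether those reads span the splice site is not given in the sources used here, so the count is not a measure of splicing. The mRNAs of the sensors moved less. EIF2AK3 had 1179 reads in mock and 5292 after thapsigargin, 4.35-fold higher (4.08 to 4.64). ERN1 had 291 and 914 reads, 3.04-fold higher (2.66 to 3.48). ATF6 had 4183 and 8111 reads, 1.88-fold higher (1.81 to 1.95), under the 2-fold rule but at a log2 ratio of 1.29 against the genotype-set mock. ATF4, which is controlled mainly in translation, had 168 and 329 reads, 1.90-fold higher (1.57 to 2.30), and its genotype-set mock count was 202. Against the genotype-set mock the ATF4 log2 ratio was 0.34. CREB3L2, an ER-anchored relative of ATF6, was 3.13-fold higher, with 3227 and 10421 reads. The proteases that cut ATF6, MBTPS1 and MBTPS2, had log2 ratios of 0.03 and −0.02.

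**Figure D3:**
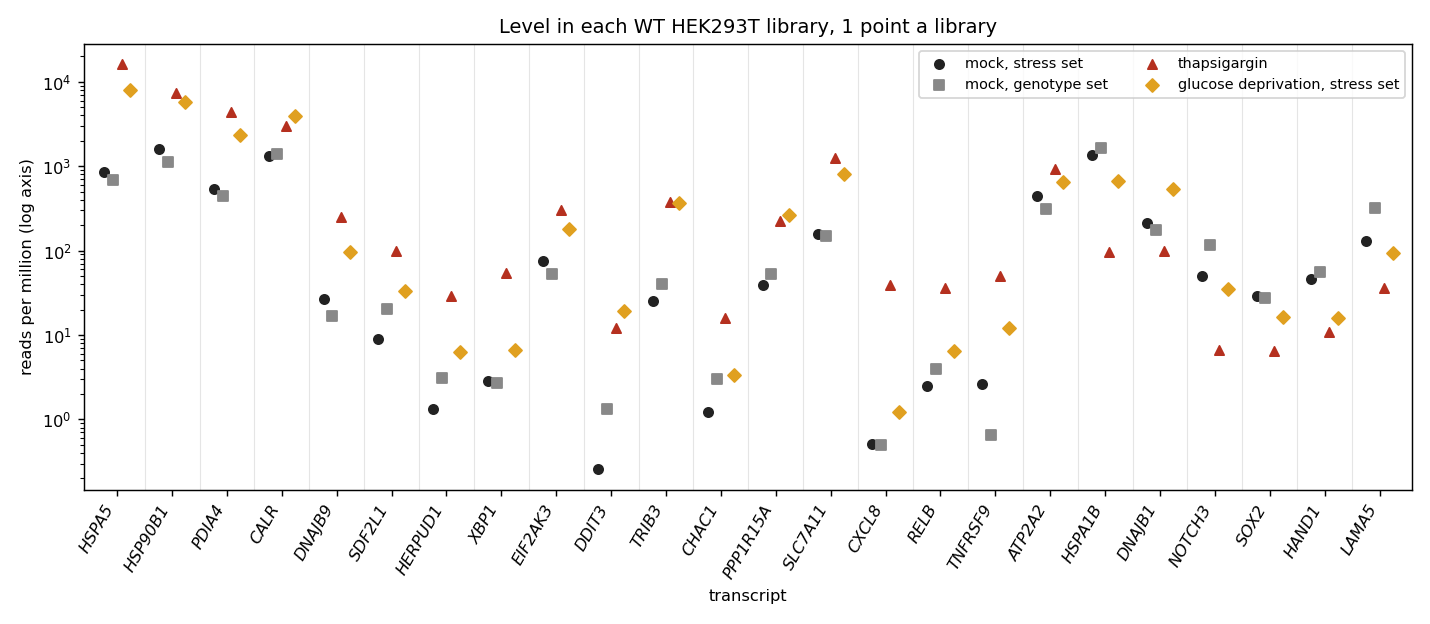
Points give the level of 24 transcripts in CPM over the transcripts that both tables hold (vertical log axis), 1 point for each of 4 WT HEK293T libraries. For HSPA5 the mock libraries sit at 866 and 696, glucose deprivation at 7908 and thapsigargin at 16180 CPM, while for HSPA1B the thapsigargin point at 96.0 lies below the other libraries.

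Targets of the ATF4 branch had the highest median of the lists. Of 16 integrated stress response effectors with enough reads, 12 reached 2-fold higher and 0 lower, with a median log2 ratio of 2.20. Of the 16, 10 were 2-fold higher against both mock libraries. DDIT3 encodes CHOP, a transcription factor linked to death after prolonged ER stress. It had 4 and 16 reads in the stress-set and genotype-set mock libraries and 211 after thapsigargin, a ratio of 51.1 (19.7 to 189) against the first and 10.3 against the second. The pseudokinase TRIB3, a CHOP target, had 392 and 481 reads in the mock libraries and 6486 after thapsigargin, 16.0-fold higher (14.5 to 17.8). CHAC1, which degrades glutathione, had 19 and 36 reads in mock and 277 after thapsigargin, 14.1-fold higher (8.87 to 23.8). INHBE, an inhibin subunit, had 7, 13 and 169 reads in the same order. PPP1R15A encodes GADD34, the phosphatase subunit that reverses eIF2 alpha phosphorylation. It had 619 reads in mock and 3889 after thapsigargin, 6.09-fold higher (5.59 to 6.64). STC2, SESN2 and CEBPB were 6.45-fold, 5.11-fold and 5.06-fold higher. DDIT4, an inhibitor of mTORC1, was 2.83-fold higher against the stress-set mock (1057 and 3085 reads) and 1.33-fold against the genotype-set mock, which held 1818.

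Enzymes and carriers that supply amino acids, many of them known ATF4 targets, were also higher in part. Of 11 transcripts for serine, one-carbon, asparagine and proline synthesis, 7 reached 2-fold higher and 0 lower (median log2 ratio 1.38), 5 of them against both mock libraries. CTH, the last enzyme of cysteine synthesis, had 10 reads in mock and 148 after thapsigargin, 14.3-fold higher (7.58 to 30.5). The serine synthesis enzymes PSAT1 and PSPH were 2.62-fold and 2.63-fold higher, and PHGDH, the first enzyme of that pathway, 1.53-fold. GPT2 was 4.13-fold higher against the stress-set mock but had 137 reads in the genotype-set mock and 145 after thapsigargin. The cystine transporter SLC7A11 went from 2488 to 21923 reads, 8.54-fold higher (8.19 to 8.90), and its antisense RNA SLC7A11-AS1 from 33 to 550. The use of strand in counting is not given in the sources used here, so reads of the pair may not be told apart. SLC7A1, a carrier of cationic amino acids, was 3.37-fold higher. Of 12 amino acid transporters, 4 reached 2-fold higher and 0 lower. Of 16 cytosolic aminoacyl-tRNA synthetases, 4 were at least 2-fold higher (AARS, GARS, SARS and YARS, of which SARS had a log2 ratio of 0.95 against the genotype-set mock) and 15 had a ratio above 1. XPOT, the tRNA exporter, is on no list and went from 15091 to 38433 reads, 2.47-fold higher.

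**Figure D4:**
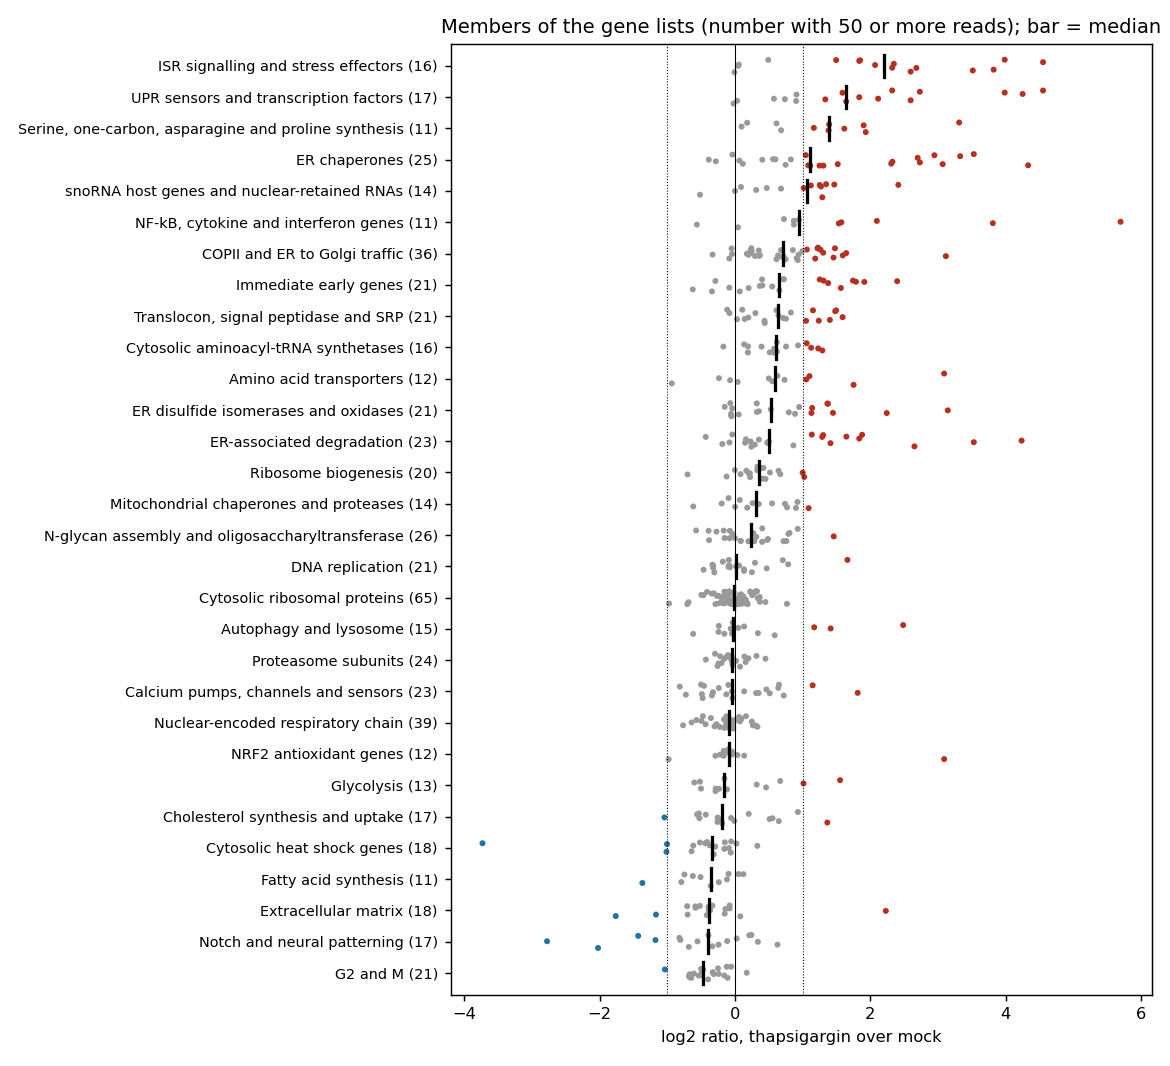
Each point is a transcript with 50 or more reads, placed by its log2 ratio of thapsigargin over mock (horizontal axis) in the row of its gene list, with red for at least 2-fold higher, blue for at least 2-fold lower and a black bar for the list's median. Lists with 10 or more such transcripts are drawn: integrated stress response effectors stand at the top with a median of 2.20 and G2 and M genes at the bottom with −0.47.

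Components that handle proteins at the ER were higher in part. Of 23 transcripts of ER-associated degradation, 10 reached 2-fold higher and 0 lower, and all 10 were so against both mock libraries. HERPUD1, which gathers the degradation complex at the membrane, had 21 and 37 reads in the mock libraries and 499 after thapsigargin, 23.0-fold higher (14.9 to 37.5). SEL1L, the scaffold of the HRD1 ligase, had 3531 reads in mock and 22933 after thapsigargin, 6.29-fold higher (6.07 to 6.52). EDEM1 and EDEM3, which trim mannose from glycoproteins, were 3.58-fold and 2.66-fold higher, and DERL2, a channel subunit, 3.14-fold. ERLIN2 and YOD1 had log2 ratios of −0.19 and −0.43.

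Of 21 disulfide isomerases and oxidases, 7 reached 2-fold higher and 0 lower, 6 against both mock libraries. PDIA4 had 8486 and 5443 reads in the mock libraries and 77511 after thapsigargin, 8.85-fold higher (8.65 to 9.05). ERO1B, which reoxidises the isomerases, was 4.75-fold higher, with 1163 and 5701 reads, whereas its paralog ERO1A had a log2 ratio of 0.06. PDIA3 and PDIA6 were 2.59-fold and 2.58-fold higher. At the translocon, the channel through which new proteins enter the ER, 7 of 21 transcripts were at least 2-fold higher, all 7 against both mock libraries. SEC61A1, its pore subunit, went from 11032 to 30118 reads, 2.65-fold higher (2.59 to 2.70). SERP1, which protects the translocon under stress, was 3.01-fold higher, and SRPRB, SSR3 and SEC11C 2.80-fold, 2.36-fold and 2.84-fold.

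In the COPII and ER-to-Golgi list, 11 of 36 reached 2-fold higher and 0 lower, 8 against both mock libraries. The cargo adaptor SEC24D had 1087 and 594 reads in the mock libraries and 9770 after thapsigargin, 8.71-fold higher (8.18 to 9.28). Its paralog SEC24A had a log2 ratio of 0.91, and SEC24C was 2.54-fold higher at 34 and 89 reads. The coat component SEC31A was 3.06-fold higher and the SNARE STX5 2.83-fold. Of 26 N-glycan transcripts, 1 was at least 2-fold higher, beside 4.79% of all transcripts. It was ALG12, at 2.77-fold, and its ratio against the genotype-set mock was under 2-fold, at a log2 ratio of 0.72. GFPT1, which starts hexosamine synthesis, was 3.52-fold higher with 408 and 1482 reads, while GFPT2 was 1.76-fold lower with 516 and 303 reads.

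Among 23 calcium pumps, channels and sensors, 2 reached 2-fold higher and 0 lower, with a median log2 ratio of −0.05. Over all transcripts, 4.79% were called higher and 3.33% lower. ATP2A2 encodes the pump that thapsigargin blocks. It had 7009 and 3757 reads in the mock libraries and 16037 after thapsigargin, 2.22-fold higher (2.16 to 2.28) against the first and 3.34-fold against the second. NUCB2, a calcium-binding protein, was 3.52-fold higher, with 1519 and 5525 reads. RYR2, a calcium release channel, was 1.66-fold lower, and STIM1, the sensor of ER calcium, had a log2 ratio of −0.13. RCAN1, a target of calcineurin signalling, was under the read minimum, with 8 reads in the stress-set mock and 43 after thapsigargin. The genotype-set mock alone held 42 RCAN1 reads, and against it the log2 ratio was −0.29.

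The highest ratio of all named transcripts belonged to a cytokine. CXCL8 encodes interleukin-8, which attracts neutrophils. It had 8 and 6 reads in the mock libraries, 14 after glucose deprivation and 687 after thapsigargin, a ratio of 83.2 (42.0 to 194). Of 11 NF-kB, cytokine and interferon transcripts with enough reads, 5 reached 2-fold higher and 0 lower (median log2 ratio 0.95): CXCL8, RELB, CCL2, NFKB1 and BIRC3. NFKB1 was not compared with the genotype-set mock, and the other 4 were also 2-fold higher against both mock libraries. RELB, an NF-kB subunit, had 39 and 48 reads in the mock libraries and 631 after thapsigargin, 15.7-fold higher (11.3 to 22.3). CCL2, which attracts monocytes, had 37 and 27 reads in mock and 180 after thapsigargin. TNFRSF9, a receptor of the TNF family outside the list, had 41 and 8 reads in the mock libraries and 861 after thapsigargin, 20.3-fold higher (14.9 to 28.6). CXCL10 had 2 reads in mock and 101 after thapsigargin, a ratio of 48.9 with an interval of 13.2 to 410. TNF and CD69 were at 0 reads in mock and had 51 and 53 after thapsigargin, at least 16.5-fold and 17.1-fold higher when the mock count is set to 3. IFIT2, an interferon gene, had a log2 ratio of −0.56. IFI44L, an interferon gene outside the list, had 70 and 45 reads in the mock libraries and 8 after thapsigargin. It was 9.03-fold lower (4.34 to 21.7) against the first and 7.20-fold lower against the second.

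Immediate early genes are switched on within minutes of many signals, and 8 of 21 of them passed 2-fold upward and 0 downward, 7 of them against both mock libraries. The list's median log2 ratio was 0.66 against the stress-set mock and −0.12 against the genotype-set mock. CYR61, a target of YAP, had 3051 and 2841 reads in the mock libraries and 16606 after thapsigargin, 5.27-fold higher (5.07 to 5.48). IER3 was 3.48-fold higher (535 and 1920 reads), NR4A2 3.46-fold and EGR1 4.15-fold. FOS was 3.21-fold higher with 38 and 126 reads. JUN and DUSP1 had log2 ratios of 0.41 and 0.40. Of 14 host genes of small nucleolar RNAs and nuclear-retained RNAs, 8 were at least 2-fold higher, but 3 against both mock libraries. GAS5 was 2.77-fold higher (1620 and 4634 reads) and SNHG1 2.39-fold, while ZFAS1 had 28 and 68 reads in the mock libraries and 176 after thapsigargin.

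The lowest log2 ratio (with the prior count of 5) was that of a cytosolic chaperone. HSPA1B encodes the inducible cytosolic Hsp70. It had 21545 and 20094 reads in the mock libraries and 1671 after thapsigargin, 13.3-fold lower against the first (a log2 ratio of −3.73) and 15.4-fold lower against the second. Reads of its near-identical copy HSPA1A, at 42 and 6, may have been split between the rows. Of 18 cytosolic heat shock transcripts, 3 were at least 2-fold lower and 0 higher, with a median log2 ratio of −0.34. Of all transcripts, 3.33% were called lower. DNAJA1 and DNAJB1, Hsp70 cochaperones, were 2.02-fold and 2.01-fold lower, just past the rule, and neither was 2-fold lower against the genotype-set mock. HSP90AB1, the constitutive cytosolic Hsp90, had 51305 and 36989 reads, 1.43-fold lower (1.41 to 1.45). HSPA5 of the ER and the inducible cytosolic HSPA1B thus had ratios in opposite directions in the same pair of libraries. The row of HSPA8, another cytosolic Hsp70, held 5 reads in mock and 0 after thapsigargin, under the read minimum.

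NOTCH3, SOX2 and HAND1, which act in development, were among the 25 lowest ratios. In the Notch and neural patterning list, 4 of 17 were at least 2-fold lower and 0 higher, beside 3.33% of all transcripts called lower. All 4 were so against both mock libraries. NOTCH3 had 792 and 1421 reads in the mock libraries and 115 after thapsigargin, 7.11-fold lower (5.84 to 8.72). NOTCH1 was 2.26-fold lower (2737 and 1249 reads) and the ligand DLL1 2.76-fold. The target genes HES1 and HEY1 had log2 ratios of −0.11 and −0.33. The target gene HES5 lay under the read minimum in the pair compared and was not called. Its count was 24 in the stress-set mock, 55 in the genotype-set mock and 2 after thapsigargin. The HES5 log2 ratio was −2.08 against the first mock and −3.32 against the second, on low counts. SOX2, a factor of neural progenitors, had 456 and 333 reads in the mock libraries and 112 after thapsigargin, 4.20-fold lower (3.41 to 5.22). HAND1 had 713, 684 and 189 reads in the same order, 3.89-fold lower, and the growth factor GDF6 had 396, 454 and 93, 4.40-fold lower. TMEM37, a membrane protein, had 165 and 216 reads in the mock libraries and 12 after thapsigargin, 14.2-fold lower (7.91 to 28.0).

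Extracellular matrix transcripts had a median log2 ratio of −0.39, with 2 of 18 at least 2-fold lower and 1 higher. Of all transcripts, 3.33% were called lower and 4.79% higher. LAMA5, a laminin chain, had 2058 and 3888 reads in the mock libraries and 623 after thapsigargin, 3.41-fold lower (3.12 to 3.74). COL5A1 was 2.25-fold lower, with 6405 and 2942 reads, while TGFBI was 5.76-fold higher at 17 and 101 reads. FAT4, a giant cadherin outside the list, had 3941, 2586 and 1078 reads in stress-set mock, genotype-set mock and thapsigargin. Of 21 G2 and M genes, 1 was at least 2-fold lower, beside 3.33% of all transcripts. It was DLGAP5, at a log2 ratio of −0.19 against the genotype-set mock. Of the 21 genes, 20 had a ratio below 1. Their median moved from −0.47 against the stress-set mock to −0.13 against the genotype-set mock. CDC6, a replication licensing factor, differed from the rest of its list: it had 5389 reads in the stress-set mock, 3239 in the genotype-set mock and 17617 after thapsigargin, 3.17-fold above the first.

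No call was made in several large groups. None of 65 cytosolic ribosomal proteins, 24 proteasome subunits and 39 respiratory chain transcripts was called, with median log2 ratios of −0.01, −0.04 and −0.09. With library totals in place of TMM these were −0.13, −0.16 and −0.20. Of 7 members of the p97 (VCP) and UFD1-NPL4 complex, 0 were called. VCP, the ATPase that pulls proteins out of the ER membrane, had 14504 reads in mock and 21758 after thapsigargin, 1.45-fold higher (1.42 to 1.48). NPLOC4 had 5529 and 5004 reads, and the row of UFD1 had 10 and 0. Other lists held calls in small numbers, beside 8.13% of all transcripts. In cholesterol synthesis and uptake, 1 of 17 was at least 2-fold higher, STARD4, and 1 lower, INSIG1, which had a log2 ratio of −0.88 against the genotype-set mock. Of 12 mRNAs known to be cut by IRE1, 7 had enough reads, of which 0 were 2-fold lower and 2 at least 2-fold higher, though 0 against both mock libraries. BLOC1S1, a standard example of these, had 36 reads in mock and 16 after thapsigargin, under the minimum. PMP22 had 10 and 50 reads in the mock and thapsigargin libraries but also 50 in the genotype-set mock. PER1 of that list was 2.70-fold higher against the stress-set mock, at a log2 ratio of 0.57 against the genotype-set mock.

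Glucose deprivation for 24 h in the same set gave another pattern of values beside the same mock library, which both comparisons share. The treatments and their times differ, so the values are set side by side without a test. HSPA5 had 281566 reads after thapsigargin and 89962 after glucose deprivation, at log2 ratios of 4.33 and 3.28. DDIT3 and TRIB3 had log2 ratios of 4.55 and 3.99 after thapsigargin and of 5.02 and 3.92 after glucose deprivation. XBP1 had 4.25 and 1.21, HERPUD1 4.24 and 2.04, and CXCL8 5.70 and 0.92. The median of integrated stress response effectors was 2.20 after thapsigargin and 1.59 after glucose deprivation, that of COPII and ER-to-Golgi transcripts 0.70 and 0.20, and that of NF-kB, cytokine and interferon transcripts 0.95 and 0.06. HMOX1, an antioxidant enzyme, had 276 reads in mock, 142 after thapsigargin and 1645 after glucose deprivation. DNAJB1 had 3319, 1706 and 6190 in the same order. For these 2 transcripts the stresses lay on opposite sides of mock.

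Some standard ER stress transcripts lay under the read minimum. GDF15, a stress-secreted cytokine, had 5 and 18 reads in the mock libraries and 41 after thapsigargin, 1.78-fold above the second. In the stress-set mock and after thapsigargin, NUPR1 had 4 and 38 reads and FGF21 0 and 14. SYVN1 (HRD1), the ligase scaffolded by SEL1L, had 6 and 20, and DERL3 8 and 29. ATF3 was at 0 in both libraries and the asparagine synthetase ASNS had 0 and 4 reads. These rows were not called. Each is a single transcript row and need not hold the gene's whole count, so a low count does not show a silent gene.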

How the data were processed

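TRIzol extraction and the TruSeq Ribo Profile kit were used, per the labels' protocols. Trimming, alignment and counting tools (cutadapt, FastQC, Bowtie2, bedtools) and the build hg19 come from the submitters' processing notes, which give no versions. How reads were assigned to transcripts is not given in the sources used here. Values are the authors' deposited counts of reads for each RefSeq transcript, with 1 row per symbol and no normalization.

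Log2 ratios were computed with edgeR 4.0.16 (R 4.3.3) on CPM with TMM factors, after adding a prior count of 5. A fold in the text divides the scaled reads of both libraries. Its 95% interval is the exact conditional (binomial) interval and takes in counting error alone. A call needs a 2-fold ratio and 50 reads in the higher library. A transcript at 0 is bounded against 3 counts per library. The genotype-set mock was compared over the 10368 transcripts both tables hold.

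The pooled edgeR quasi-likelihood fit, with Benjamini-Hochberg adjustment, had set, genotype, glucose deprivation and thapsigargin as terms and 2 residual degrees of freedom. Its p-values rest on libraries that nothing marks as separate cultures, so the spread may be technical. DESeq2 1.42.0 was an alternative. The scripts were tested on simulated counts.

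Members and the 39 gene lists were chosen with earlier results of these data known. Named transcripts are the 25 highest and 25 lowest ratios without small RNA, histone and uncharacterised names, for each list up to 6 members farthest from a log2 ratio of 0, and a fixed set of sensors and targets. Others named were chosen after their values were seen. A few transcripts covered by it are not reported here. C-terminal ER retrieval signals were not analysed here.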

Additional observations from a re-analysis of the deposited data

How the results depend on the processing

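Call counts under other settings were these. A minimum of 20 reads gave 1162 calls, 637 higher and 525 lower, and a minimum of 200 reads gave 404, 273 higher and 131 lower. A 1.5-fold rule gave 2055, 1097 higher and 958 lower, and a 3-fold rule 221, 152 higher and 69 lower. Against the genotype-set mock there were 1637 calls, 542 higher and 1095 lower. At least 2-fold from both WT mock libraries there were 445, 240 of them higher. The cause of the difference between mock libraries was not tested. Library totals, RLE size factors, leaving out RNA45SN5, a prior count of 1, edgeR and DESeq2 gave counts within 1.5 times the main ones, with 354 to 532 higher and 297 to 403 lower. Between the mock libraries, a minimum of 200 reads (chosen after seeing the data) gave 485 calls in place of 947.

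Of the named transcripts, 4 called higher changed sign against the genotype-set mock, at log2 ratios of −0.43 for BAD, −0.26 for GPT2, −1.51 for PFKL and −0.32 for PMP22. Beside those 4, 178 of 249 named transcripts left their interval for counting error against the genotype-set mock, and 67 stayed within it. With library totals, 109 of 258 left it. In the edgeR and DESeq2 fits, 106 and 109 of 249 did. No other setting run changed the sign of a called named transcript. Of 37 list medians, 5 left their binomial interval against the genotype-set mock and 3 with library totals. No replicate could be left out, since each side has 1 library. No paired analysis was possible because the groups compared have a single library each. Low counts limit precision: intervals of transcripts with under 10 reads in mock span severalfold.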

Other observations

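Families of developmental genes, chosen by name after their values were seen and mostly not on the lists (SOX2, SOX4 and SOX11 are), lay mostly below mock. Of all transcripts, 3.33% were called lower and 4.79% higher, the shares to set beside the counts of each family. Of 27 HOX genes with 50 or more reads, 22 had a ratio below 1, with a median log2 ratio of −0.65. At least 2-fold lower were 7 of them (6 against both mock libraries), and 1 was higher. HOXA5 had 791 and 577 reads in the mock libraries and 246 after thapsigargin, 3.32-fold lower (95% interval 2.87 to 3.85), and HOXA13 had 922, 607 and 381. HOXB9 went the other way, with 1409, 1383 and 3025 reads. It was 2.08-fold higher against the stress-set mock and 1.71-fold against the genotype-set mock, the latter under the 2-fold rule. All 11 SOX genes had a ratio below 1 and 4 were at least 2-fold lower, SOX2, SOX3, SOX9 and SOX18, each against both mock libraries. Of 12 protocadherins 5 were at least 2-fold lower, 3 against both mock libraries, among them PCDH18 with 782, 518 and 235 reads. LGR5, a receptor of the Wnt pathway, had 4416, 3381 and 1772 reads, and the Wnt receptor FZD8 710, 964 and 286. After glucose deprivation the median of the HOX genes was −0.85 and that of the SOX genes −0.45, over the same transcripts and beside the same mock library.

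Other transcripts outside the lists, also picked after their values were seen, stood more than 2-fold above both mock libraries. TNC, a matrix glycoprotein, had 524 and 516 reads in the mock libraries and 2602 after thapsigargin, 4.81-fold higher (4.38 to 5.29). THBS1, a secreted adhesion protein, had 367, 527 and 1802 reads. SAT1, the enzyme that acetylates polyamines, is counted on a non-coding row and had 178, 137 and 3398 reads, 18.5-fold higher (15.9 to 21.6). UFM1, a ubiquitin-like modifier used at the ER, had 1601, 1036 and 4757 reads, 2.88-fold higher (2.72 to 3.05). KLHDC7B was at 0 in both mock libraries and had 114 reads after thapsigargin and 197 after glucose deprivation.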
